A study of Mus musculus with 4 samples.

Results

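The granzyme genes Gzmb, Gzmc, Gzmd, Gzme, Gzmf and Gzmg of mouse chromosome 14 were followed through the immune cells of B16-GP33 tumours. They were taken by symbol from the deposited feature lists, where all 6 were present among 27998 genes. B16-GP33 is a mouse melanoma line of C57BL/6 origin with the viral peptide GP33, which CD8 T cells can recognise. It was grown under the skin of the flank of C57BL/6 mice for 18 days. The tumours came from mice given anti-PD-1, mice given anti-PSGL-1, mice given the combination of both, and mice given IgG as the control, with 200 ug of each antibody on days 8, 10 and 12. Each treatment was 1 library of sorted cells, negative for the dead-cell dye propidium iodide and positive for CD45.2, a protein of all leukocytes. The sources used here do not give the age and sex of the mice or how many tumours made up a library. With 1 library per treatment the differences between treatments have no replicate check. They are therefore given with intervals that cover counting error only, and with no test.

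Granzymes are serine proteases that cytotoxic lymphocytes store in granules and release, together with the pore-forming protein perforin, toward a target cell. Granzyme B cleaves after aspartate and activates caspases, and it is the best known member of the family in CD8 T cells and NK cells. The genes for granzymes C to G lie beside Gzmb in the mouse and have no direct human counterparts. Their transcripts are known from strongly stimulated mouse T cells and NK cells, and their substrates are less well described.

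All 6 genes lie on the minus strand within 144.6 kb of chromosome 14 (GENCODE vM21 on the GRCm38 assembly, which is the mm10 build named in the submitters' processing notes). Gzmb (ENSMUSG00000015437) runs from 56258838 to 56262260. It is followed downstream by Gzmc (ENSMUSG00000079186, 56231441 to 56234656), Gzmf (ENSMUSG00000015441, 56205263 to 56211417), Gzmg (ENSMUSG00000040284, 56156582 to 56159579), Gzmd (ENSMUSG00000059256, 56129556 to 56132608) and Gzme (ENSMUSG00000022156, 56117626 to 56120625). Gzmn, a related gene between Gzmg and Gzmf, had 3 UMIs in all barcodes of the 4 libraries. A UMI is a molecular tag that counts an original RNA molecule once.

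The starts of the 5 genes Gzmc to Gzmg are alike, and a block of 93 bases around a similar stretch of 8 is shown for each. The length of the block was set for display. Over the 250 bases before the start these 5 genes were 70.2% to 94.8% identical. Any part of the block in the levels of the genes was not tested. The sequences are RefSeq promoter windows of GRCm38.p6, read 5′ to 3′ on the minus strand of chromosome 14, and all 6 members matched the table. In the first 5 lines the capitals mark 8 bases that line up with the cAMP response element TGACGTCA, and in the Gzmb line they mark the AP-1 letters TGAGTCA and the Runx core TGTGGT.
Gzmc: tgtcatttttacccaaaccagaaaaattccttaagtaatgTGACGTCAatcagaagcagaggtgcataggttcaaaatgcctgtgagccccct
Gzmd: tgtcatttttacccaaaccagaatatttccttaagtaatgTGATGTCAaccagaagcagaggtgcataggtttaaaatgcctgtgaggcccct
Gzme: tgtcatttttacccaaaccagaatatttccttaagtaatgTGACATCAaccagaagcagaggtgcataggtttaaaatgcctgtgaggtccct
Gzmf: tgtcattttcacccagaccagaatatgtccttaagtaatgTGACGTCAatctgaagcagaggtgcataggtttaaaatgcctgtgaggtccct
Gzmg: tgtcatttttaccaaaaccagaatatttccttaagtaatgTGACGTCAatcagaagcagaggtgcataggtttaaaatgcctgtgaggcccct
Gzmb: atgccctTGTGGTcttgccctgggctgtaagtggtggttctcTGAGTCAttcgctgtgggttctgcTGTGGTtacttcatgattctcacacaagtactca
The blocks lie at chr14:56234662-56234754 for Gzmc, chr14:56132602-56132694 for Gzmd, chr14:56120635-56120727 for Gzme, chr14:56211437-56211529 for Gzmf and chr14:56159604-56159696 for Gzmg. They were 90.3% to 96.8% identical to each other. The Gzmb line is chr14:56262335-56262434, the 100 bases before its RefSeq start.

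Motifs were searched on both strands of the 250 bases before each RefSeq start, in the members and in 32851 promoters in all. TGACGTCA, whose reverse complement is itself, was found in Gzmc, Gzmf and Gzmg and in 1.55% of all promoters. Gzmd held TGATGTCA and Gzme its reverse complement TGACATCA at the same place, a pair of letters found on either strand in 2.93% of promoters. TGANTCA was found in Gzmb alone among the 6 genes and in 6.75% of promoters. ACCACA, the reverse complement of TGTGGT, had 2 matches in each of the 6 genes and was found in 14.1% of promoters. TTCNNNGAA, the letters that STAT factors are known to bind, was in none of the 6 windows and in 7.02% of promoters. These matches describe letters in a window and no more.

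The similarity of the genes limits how well their counts can be told apart. Gzmd and Gzme were 94.8% identical over the 250 bases before the start and 90.0% identical in their transcripts. Transcripts of Gzmd to Gzmg were 82.9% to 90.0% identical to each other, Gzmc was 68.1% to 69.7% identical to them, and Gzmb was 44.2% to 47.1% identical to the other 5. Windows of 75 bases that occur exactly in another member made up 5.73% of the Gzmd transcript, 4.75% of Gzme and 5.15% of Gzmg, and were absent from Gzmb, Gzmc and Gzmf. The sources used here do not give how reads shared by copies were counted or which end of the transcript was sequenced, so the split of UMIs among Gzmd, Gzme and Gzmg is uncertain. An antisense gene, Gm4022, overlaps the end of Gzmf and is not in the deposited feature lists. Levels are given as CPM, the UMIs of a gene per 1000000 UMIs of a cell class in a library. The level of a gene is compared across cells and libraries. Apart from shares and sums of UMIs over members, it is not compared with the level of another gene.

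The libraries held 5621, 7302, 4614 and 9733 barcodes and 40913129, 53303195, 44983543 and 45411218 UMIs with anti-PD-1, anti-PSGL-1, the combination and IgG, and 6 to 14 barcodes were shared by each pair of libraries. After filters and removal of likely doublets 5019, 6492, 4228 and 8748 cells were kept, with 6252, 6164, 8392 and 3674.5 UMIs in the median cell. Classes were rebuilt by clustering in which none of the 6 members took part, and a class is called "like" a cell type from its markers. CD8 T-like cells numbered 1128, 1375, 1701 and 1384 in the same library order, with medians of 10060.5, 7404, 10823 and 4717 UMIs, and NK-like cells 507, 412, 243 and 795. Cd8a or Cd8b1 was detected in 71.5% to 99.7% of the cells of the 5 CD8 T-like clusters. A T cell cluster led by H2-Aa, Cd74 and Lyz2, with Cd8a or Cd8b1 in 63.3% of its cells, stayed unnamed. It held 1109 cells with IgG and 12 to 56 cells in each other library, so the IgG library stood apart. Its levels with IgG were 425 CPM of Gzmb and 186 CPM of Gzmc to Gzmg in sum. Choosing CD8 cells by their UMIs alone, which takes in part of this cluster, gave 1199, 1441, 1732 and 1935 cells.

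In CD8 T-like cells all 6 genes were higher with anti-PD-1 and with the combination than with IgG, and Gzmc to Gzmg differed by more than Gzmb did. Gzmb stood at 2407 CPM (95% Poisson interval 2380.1 to 2434) in the anti-PD-1 library, 844 CPM (828 to 861) in the anti-PSGL-1 library, 2639 CPM (2617 to 2660.4) with the combination and 785 CPM (767 to 804) with IgG. The libraries thus fell into a high pair that shared anti-PD-1 and a low pair that did not. The ratios to IgG were 3.06 (2.99 to 3.15) for anti-PD-1, 1.08 (1.04 to 1.11) for anti-PSGL-1 and 3.36 (3.28 to 3.45) for the combination.

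Gzmf, the member with the largest ratios to IgG in these cells, stood at 1307 CPM with anti-PD-1, 62.3 CPM with anti-PSGL-1, 1239 CPM with the combination and 55.5 CPM with IgG. It was 23.5-fold higher with anti-PD-1 (21.5 to 25.8) and 22.3-fold higher with the combination (20.4 to 24.5), while the ratio for anti-PSGL-1 was 1.12 (1.00 to 1.26). Gzmc stood at 1047 CPM with anti-PD-1, 73.1 CPM with anti-PSGL-1, 664 CPM with the combination and 82.6 CPM with IgG. Its ratios to IgG were 12.7 (11.8 to 13.7) for anti-PD-1, 0.885 (0.801 to 0.977) for anti-PSGL-1 and 8.03 (7.46 to 8.67) for the combination. The Gzmc level was lower with the combination than with anti-PD-1, at a ratio of 0.634 (0.619 to 0.649).

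Gzmd and Gzme, the most similar pair in sequence, had similar patterns. Gzmd stood at 421, 15.2, 364 and 40.2 CPM with anti-PD-1, anti-PSGL-1, the combination and IgG, and Gzme at 399, 17.1, 337 and 54.3 CPM. Both were high in the libraries with anti-PD-1 and lowest with anti-PSGL-1, where the ratios to IgG were 0.378 (0.315 to 0.453) for Gzmd and 0.315 (0.266 to 0.371) for Gzme. Their ratios to IgG were 10.5 and 7.35 for anti-PD-1 and 9.04 and 6.20 for the combination. Gzmg stood at 82.6 CPM with anti-PD-1, 0.0817 CPM (1 UMI) with anti-PSGL-1, 95.4 CPM with the combination and 10.6 CPM with IgG. The 93 Gzmg UMIs of the IgG library came from 1 cell, so its ratios of 7.78 for anti-PD-1 and 8.98 for the combination rest on that cell. The treated levels also rest on few cells, since 1 cell held 41.1% of the Gzmg UMIs with anti-PD-1 and 37.6% with the combination. At a clustering resolution of 0.6 the log2 ratio of Gzmc over IgG was 2.61 for anti-PD-1 and 1.98 for the combination, against 3.66 and 3.01 as reported. Without cells that had a UMI of Mki67 or Top2a, genes of dividing cells, the log2 ratio of the combination over IgG was 3.58 for Gzmf, 1.85 for Gzmd and 1.84 for Gzme, against 4.48, 3.18 and 2.63.

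A gene was counted as higher or lower past 1.5-fold, among genes with a level of at least 50 CPM in 1 of the libraries compared. With anti-PD-1, 6 of 6 members were higher than with IgG, against 3.18% of all 2797 genes at that level. With the combination, 6 of 6 were higher than with IgG, against a background of 3.93%, and 6 of 6 were higher than with anti-PSGL-1, against 4.03%, while 3.61% of all genes were lower there. Gzmd and Gzmg were under 50 CPM with IgG, at 40.2 and 10.6 CPM. They entered the counts over IgG through the treated library, so they could not be called lower. The same held over anti-PSGL-1 for Gzmd, Gzme and Gzmg, at 15.2, 17.1 and 0.0817 CPM in that library. The combination and anti-PD-1 libraries differed past the fold in Gzmc alone, which was lower with the combination (1 of 6, background 1.18%). Without cells that had an Mki67 or Top2a UMI, 5 of 6 were lower with the combination than with anti-PD-1. With anti-PSGL-1, 0 of 6 were higher than with IgG (background 0.698%) and 1 of 6, Gzme, was lower (background 0.294%). Gzmd and Gzmg were under 50 CPM in both of these libraries and could not be counted, and the backgrounds leave out such genes. Gzme stood at 54.3 CPM with IgG, and it fell under 50 CPM when the cell with the most Gzme UMIs was left out of each library, with CD8 cells chosen by UMIs and with cells weighted equally, so that 0 of 6 were counted. Its log2 ratio stayed past the fold in those and the other alternatives (11 of 11, -2.03 to -1.33). The median log2 ratio over all these genes was 0.04 for anti-PD-1, -0.05 for anti-PSGL-1 and 0.06 for the combination over IgG, and 0.12 for the combination over anti-PSGL-1. The comparisons with IgG share the IgG library. With CD8 cells chosen by UMIs alone, the log2 ratio of Gzmb over IgG was 1.71 for anti-PD-1 and 1.85 for the combination, and that of Gzmf 4.52 and 4.41. The median depth of CD8 T-like cells was lowest with IgG, and its part in these ratios was not tested beyond the thinned shares given further on.

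**Figure D1:**
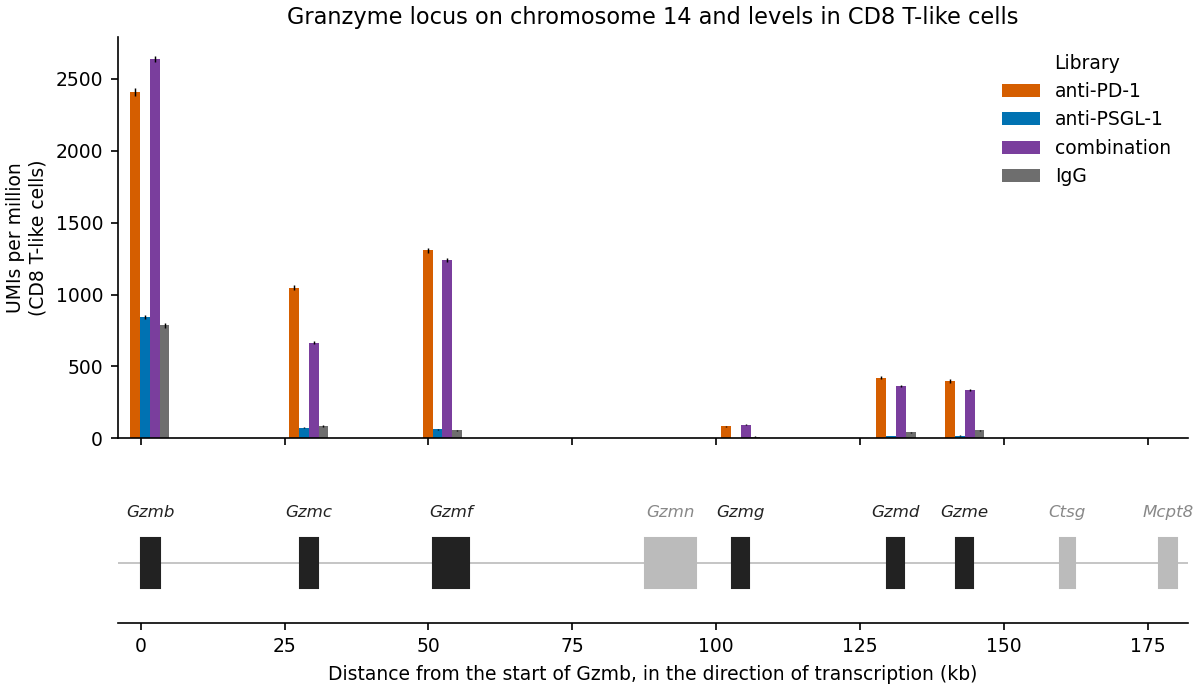
CPM of the 6 genes in CD8 T-like cells (upper panel, bars by library, vertical lines are 95% Poisson intervals) above a map of the cluster (lower panel, distance in kb from the Gzmb start). Gzmc to Gzmg, in sum, stood at 3256 CPM with anti-PD-1, 168 CPM with anti-PSGL-1, 2699 CPM with the combination and 243 CPM with IgG.

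The plot of levels along the locus shows that the low pair of libraries still held Gzmb at about the same height as each other, while the bars of the 5 downstream genes were near the axis. Gzmb made up 42.5% of the UMIs of the 6 genes in CD8 T-like cells with anti-PD-1, 83.4% with anti-PSGL-1, 49.4% with the combination and 76.4% with IgG. Gzmf made up 23.1%, 6.15%, 23.2% and 5.40% in the same order. The mix of the 6 transcripts therefore differed along with their amount.

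The highest values lay in 1 of the 5 CD8 T-like clusters. It was led, beside the members, by Serpinb9b, which encodes an inhibitor of serine proteases, and by Serpine2. This cluster held 38.9% of CD8 T-like cells with anti-PD-1 and 35.0% with the combination, where it was the largest, against 7.42% with anti-PSGL-1 and 4.26% with IgG. Within it Gzmc to Gzmg summed to 6271 CPM with anti-PD-1 (439 cells), 1448 CPM with anti-PSGL-1 (102 cells), 5252 CPM with the combination (596 cells) and 1937 CPM with IgG (59 cells). The same split into a high and a low pair of libraries was seen inside the cluster. Gzmb within it stood at 3561, 2224, 3564 and 1744 CPM.

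The cluster led by Ccl3 and Tff1 was the largest with anti-PSGL-1 (36.3% of CD8 T-like cells) and IgG (37.1%), against shares of 18.6% with anti-PD-1 and 14.5% with the combination. Its Gzmb level was 1131, 774, 1675 and 839 CPM with anti-PD-1, anti-PSGL-1, the combination and IgG, and its sum of Gzmc to Gzmg 281, 72.3, 33.2 and 180 CPM. The sum was thus lowest with the combination in this cluster, unlike in the class as a whole. In the dividing cluster, led by histone genes, the sum was 1688 CPM with anti-PD-1, 80.8 CPM with anti-PSGL-1, 1727 CPM with the combination and 213 CPM with IgG.

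The remaining CD8 T-like clusters held Gzmb with few of the other transcripts. In the cluster led by Gzma and Gzmk, other granzymes encoded elsewhere in the genome, Gzmb stood at 1121, 976, 1871 and 987 CPM with anti-PD-1, anti-PSGL-1, the combination and IgG. The sum of Gzmc to Gzmg there was 22.9, 7.84, 14.2 and 2.24 CPM. In the cluster led by Dapl1, Gzmb stood at 51.5, 46.2, 269 and 22.9 CPM, where the combination value comes from 15 cells. Macrophage- and monocyte-like cells, which should lack these genes, held a sum of 13.8, 2.57, 8.80 and 1.88 CPM. The values in the Gzma and Gzmk cluster were not far above these, and the part of free RNA in them was not tested.

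**Figure D2:**
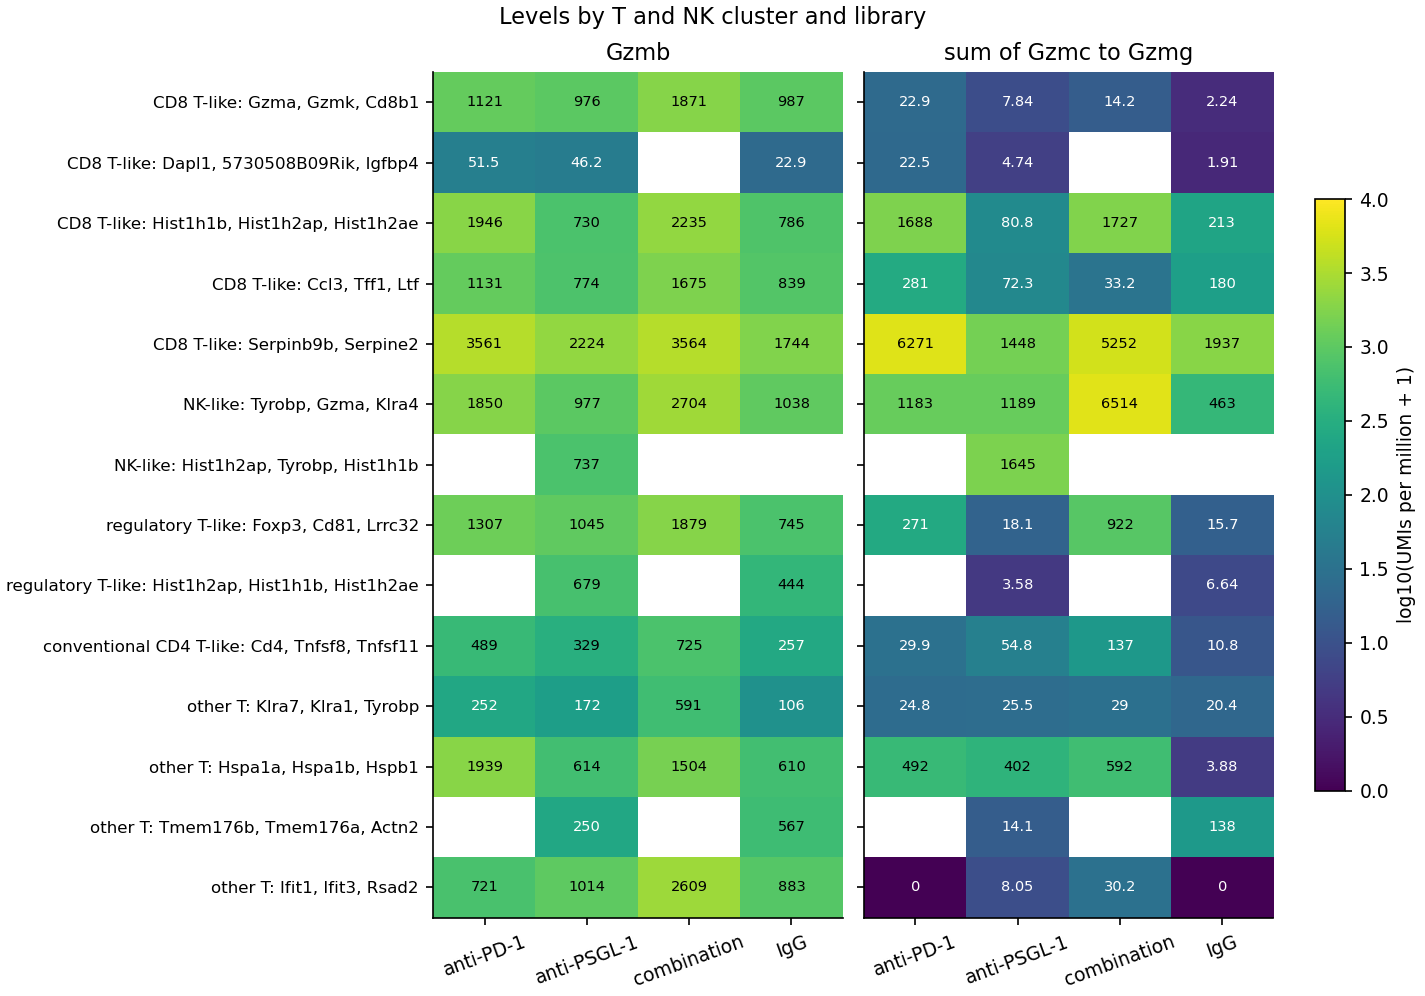
Heat maps of Gzmb and of the sum of Gzmc to Gzmg, in CPM on a log scale, for the T and NK clusters (rows, named by leading genes other than the members) in each library (columns); blank cells had fewer than 20 cells. The cluster led by Serpinb9b and Serpine2 reaches 6271 CPM of the sum with anti-PD-1, while the cluster led by Gzma and Gzmk stays at or below 22.9 CPM.

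To see how far the make-up of the class bears on the levels, each library's cluster levels were weighted by IgG cluster shares. These were shares of the UMIs of CD8 T-like cells, unlike the shares of cells given above. The sum of Gzmc to Gzmg was then 1015 CPM with anti-PD-1, 132 CPM with anti-PSGL-1, 877 CPM with the combination and 243 CPM with IgG, against the observed 3256, 168, 2699 and 243 CPM. Gzmb was then 1405, 768, 1816 and 785 CPM. The high and low pairs of libraries remained apart at equal shares, by less than in the observed levels. Cluster shares and levels were measured in the same cells, so these values only describe the libraries.

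Counts per cell were compared after each cell was thinned to 2000 UMIs, which left out 20, 36, 23 and 59 CD8 T-like cells. Gzmb was then detected in 75.6% (95% exact binomial interval 73.0 to 78.1) of cells with anti-PD-1, 54.5% (51.8 to 57.2) of those with anti-PSGL-1, 82.6% (80.7 to 84.4) with the combination and 44.2% (41.5 to 47.0) with IgG. Any of Gzmc to Gzmg was detected in 30.5% (27.8 to 33.3), 4.33% (3.31 to 5.56), 24.7% (22.7 to 26.9) and 4.0% (3.01 to 5.20). The shares of both were highest in the libraries with anti-PD-1. These intervals count cells of 1 library each and are no test between treatments. Before thinning the shares for Gzmc to Gzmg were 43.4%, 8.51%, 36.2% and 7.01%. Macrophage- and monocyte-like cells, thinned in the same way, gave 3.45%, 0.65%, 2.11% and 0.24% for Gzmc to Gzmg, at medians of 6282, 6693, 8079.5 and 4700 UMIs before thinning. For Gzmb they gave 2.36%, 1.07%, 2.18% and 1.06%.

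Most cells with any of the 6 members had Gzmb and none of Gzmc to Gzmg. Granzymes encoded elsewhere were not part of this count. Exactly 1 of the 6 members was detected in 49.1% of thinned CD8 T-like cells with anti-PD-1, 51.8% with anti-PSGL-1, 59.8% with the combination and 41.8% with IgG. Exactly 5 were detected in 4.96%, 0.22%, 4.65% and 0.45% of cells. All 6 were detected in 17 of 1108 cells with anti-PD-1, 0 of 1339 with anti-PSGL-1, 13 of 1678 with the combination and 1 of 1325 with IgG. Cells with Gzmc to Gzmg and no Gzmb made up 2.26%, 0.90%, 1.07% and 0.98%.

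**Figure D3:**
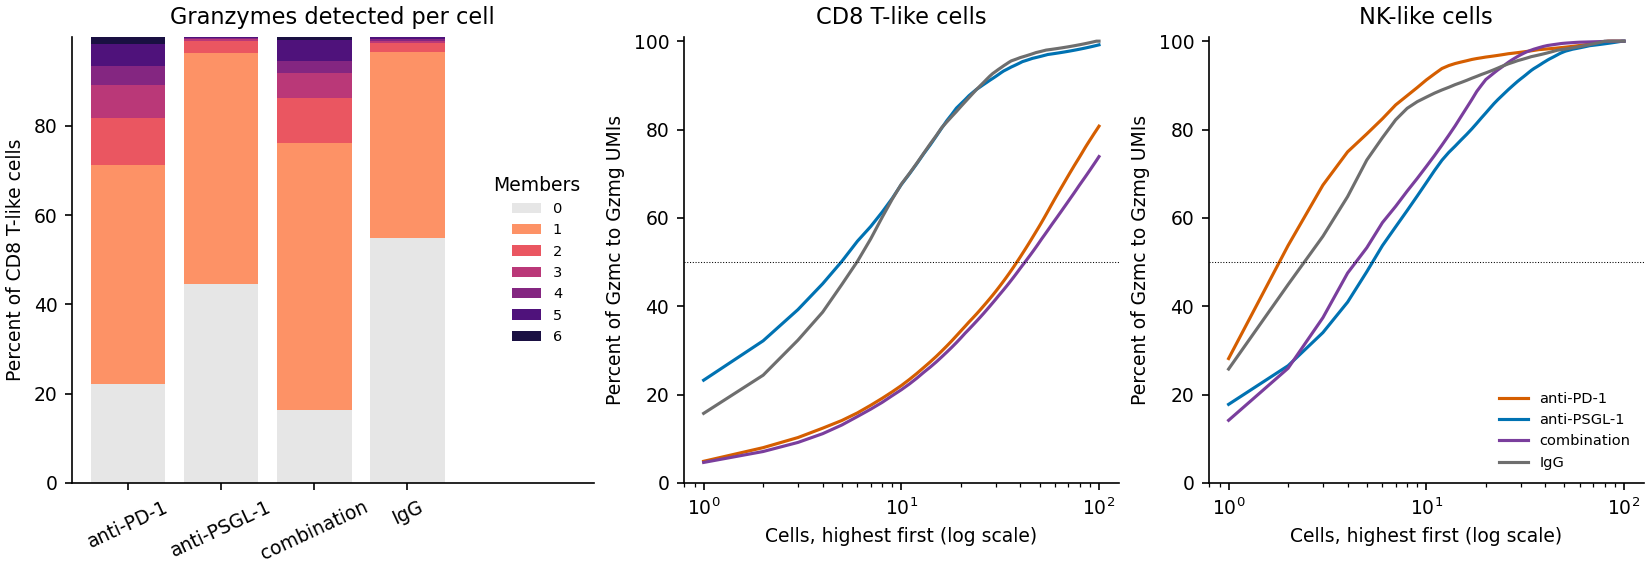
Left, the number of members detected per CD8 T-like cell thinned to 2000 UMIs, as stacked percentages by library; middle and right, the cumulative percentage of the UMIs of Gzmc to Gzmg against cells ranked by those UMIs on a log axis, in CD8 T-like and NK-like cells (lines by library, dotted line at 50%). The share of cells with no member is 22.1% with anti-PD-1, 44.6% with anti-PSGL-1, 16.3% with the combination and 54.8% with IgG, and in CD8 T-like cells the curves cross 50% within 6 cells with anti-PSGL-1 and IgG and within 43 cells with anti-PD-1 and the combination.

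The transcripts of Gzmc to Gzmg were concentrated in few cells, as the ranked curves show. In CD8 T-like cells 50% of their UMIs lay in 39 of 1128 cells with anti-PD-1, 5 of 1375 with anti-PSGL-1, 43 of 1701 with the combination and 6 of 1384 with IgG. The highest cells held 2031, 477, 2678 and 335 UMIs of the 5 genes. Gzmb was spread more widely, with 50% of its UMIs in 136, 151, 228 and 120 cells. The low levels of Gzmc to Gzmg with anti-PSGL-1 and IgG therefore rest on a handful of cells, and their counting intervals do not cover the choice of cells.

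Gzmc, Gzmd, Gzme and Gzmf were detected in the same CD8 T-like cells more often than independent detection gives, with odds ratios of 18.5 to 827 over their 6 pairs and the 4 libraries. Co-detection is described by an odds ratio (0.5 added to each count), with cells of a library as points, and is not tested. Gzmg was detected in 0 of 1339 thinned cells with anti-PSGL-1 and 1 of 1325 with IgG, too few to describe. Gzmd and Gzme were detected together in 99 thinned CD8 T-like cells with anti-PD-1, 5 with anti-PSGL-1, 123 with the combination and 13 with IgG, at odds ratios of 80.4, 389, 348 and 827. Gzmc and Gzmf, which share no exact window of 75 bases with another member, were detected together in 153, 10, 180 and 11 cells, at odds ratios of 18.5, 24.4, 21.1 and 37.8. Gzmb and Gzmc had odds ratios of 6.58, 3.63, 7.45 and 4.80, lower than those of both downstream pairs in each library. Depth per cell was made equal by thinning, and the points still share a library and the free RNA in it.

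The same thinned CD8 T-like cells were split by detection of any of Gzmc to Gzmg, 338, 58, 415 and 53 cells with it and 770, 1281, 1263 and 1272 without, in the order anti-PD-1, anti-PSGL-1, combination and IgG. The genes named here were chosen from the fixed lists after their values were seen, and the ratios (cells with over cells without) are a description. Gzmb stood at 3558 CPM in cells with and 1379 CPM in cells without with anti-PD-1, and its ratio was 2.58, 2.35, 1.90 and 2.75 in the 4 libraries. Serpinb9b had ratios of 8.90, 16.0, 10.3 and 19.1. Irf8, a transcription factor, had 2.30, 4.88, 2.86 and 4.39, and Prf1, which encodes perforin, 2.02, 2.22, 1.97 and 4.28. Gzmk had ratios of 0.318, 0.414, 0.291 and 0.237, and Tcf7, a transcription factor of naive and memory T cells, had 0.0367 with anti-PD-1, 0.0908 with the combination and 0.338 in the anti-PSGL-1 library (0.0691 to 1.00). With IgG no Tcf7 UMI was counted in the cells with Gzmc to Gzmg, against 120 CPM in the cells without. Il2ra, the inducible chain of the interleukin-2 receptor, had 3.1, 2.01, 3.26 and 2.57, with intervals that included 1 with anti-PSGL-1 and IgG.

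Likeness to the members was measured over 41 T and NK clusters by library with 50 or more cells, as Pearson's r of log2(CPM + 1) among 4583 genes. The points share libraries, depth and cell types, and no p is given. The sum of Gzmc to Gzmg was most like Serpinb9b (r = 0.905), Gipc2 (0.865), Spp1 (0.809), Irf8 (0.808) and Klri2 (0.777). Gzmb was most like Ctsd (0.899), Id2 (0.899), AW112010 (0.897), Itgb2 (0.896) and Tmsb4x (0.895). None of the 5 genes most like Gzmb was among the 5 most like the sum. Among the members themselves Gzmd and Gzme were the most alike (r = 0.944), while Gzmb had r from 0.507 to 0.657 with the other 5.

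In NK-like cells the levels of Gzmc were highest with the combination, and Gzmd to Gzmg were near 0 with IgG. Gzmc stood at 1043 CPM (999 to 1088) in the anti-PD-1 library, 1129 CPM (1087 to 1172) in the anti-PSGL-1 library, 5644 CPM (5536 to 5753) with the combination and 729 CPM (694 to 765) with IgG. The combination stood alone at the top, and the other 3 libraries lay closer together. Its ratios were 7.75 (7.35 to 8.16) over IgG and 5.41 (5.17 to 5.68) over anti-PD-1. The ratios to IgG were 1.43 (1.34 to 1.53) for anti-PD-1 and 1.55 (1.46 to 1.65) for anti-PSGL-1. Without cells that had an Mki67 or Top2a UMI, the log2 ratios of Gzmc over IgG were 1.99 for anti-PD-1, 1.84 for anti-PSGL-1 and 3.99 for the combination, against 0.52, 0.63 and 2.95 as reported. Gzmb stood at 1849.9, 936, 2699.8 and 1011 CPM, and its ratios to IgG were 1.83, 0.925 and 2.67 for anti-PD-1, anti-PSGL-1 and the combination.

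The other 4 genes were at or near 0 in NK-like cells with IgG. Gzmd stood at 64.8 CPM with anti-PD-1, 87.1 CPM with anti-PSGL-1, 485 CPM with the combination and 0 CPM with IgG, where 0 UMIs were counted in 795 cells. Set against a floor of 3 UMIs over the IgG class these are at least 48.8-fold, 65.6-fold and 366-fold higher. They rest on 7, 3 and 14 cells with a Gzmd UMI, of which 1 cell held 79.4% of the Gzmd UMIs with anti-PD-1, 49.0% with anti-PSGL-1 and 50.4% with the combination. Gzme stood at 50.9, 30.2, 166 and 3.54 CPM, and Gzmg at 15.8, 9.21, 13.5 and 0.885 CPM. Gzmf stood at 8.41, 12.6, 61.1 and 0 CPM. With anti-PD-1 it was 17 UMIs in 17 cells, 3.35% of NK-like cells. In that library 3.35% of macrophage- and monocyte-like cells also had a Gzmf UMI, at 5.26 CPM. The median depth was 3506 UMIs in NK-like cells and 6282 UMIs in macrophage- and monocyte-like cells. The part of free RNA in this Gzmf level was not tested. With the combination 1 cell held 77.9% of the Gzmf UMIs.

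**Figure D4:**
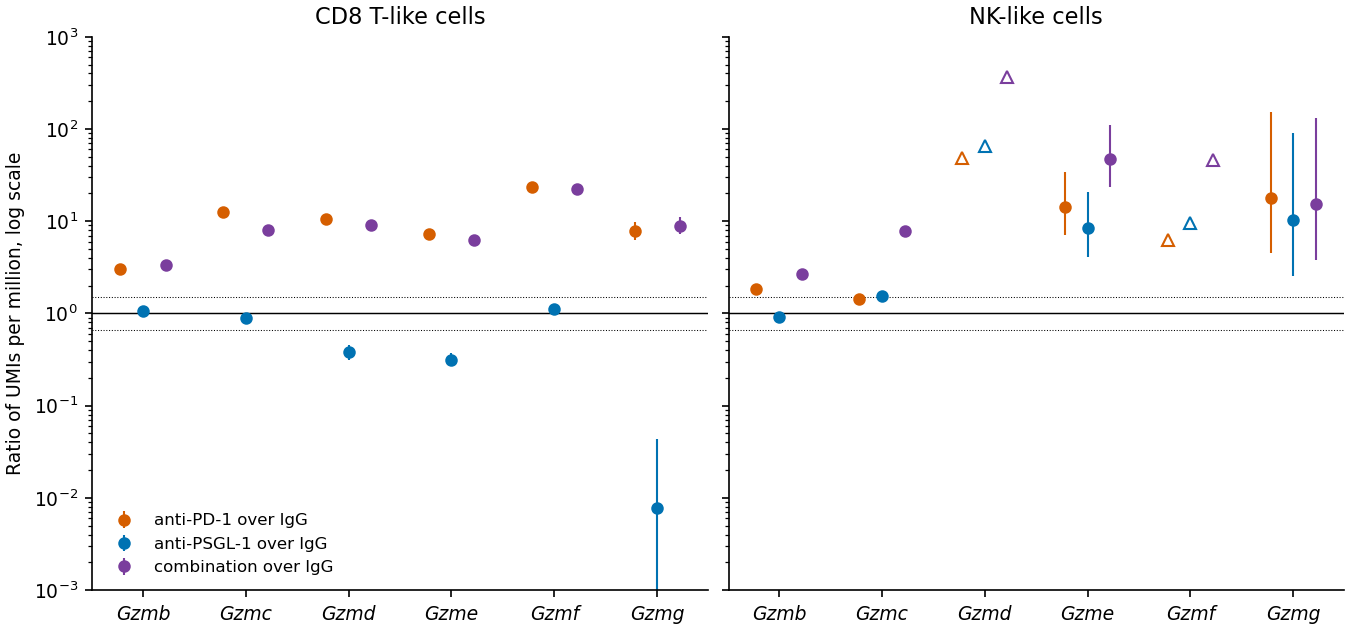
Ratio of CPM of each treated library over IgG for the 6 genes, on a log axis, in CD8 T-like and NK-like cells; vertical lines are exact conditional 95% intervals, open triangles are lower bounds where IgG had 0 UMIs, and dotted lines mark 1.5-fold. In CD8 T-like cells anti-PD-1 and the combination lie side by side, for Gzmf at 23.5 and 22.3, and in NK-like cells the combination lies above both for Gzmc, at 7.75.

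Past 1.5-fold and at 50 CPM in either library, 3 of 6 members were higher in NK-like cells with anti-PD-1 than with IgG (background 1.77%), 2 of 6 with anti-PSGL-1 (background 3.84%) and 5 of 6 with the combination (background 5.13%). Members under 50 CPM in both libraries could not be counted, and the backgrounds leave out such genes. They were Gzmf and Gzmg for anti-PD-1, Gzme, Gzmf and Gzmg for anti-PSGL-1, and Gzmg in each comparison of the combination. With IgG only Gzmb and Gzmc reached 50 CPM, while Gzmd, Gzme and Gzmf stood at 0, 3.54 and 0 CPM. Where these last were counted over IgG, they entered through the treated library and could not be called lower. None was lower in these comparisons with IgG, where 1.81%, 5.31% and 9.1% of all genes were. Without the cell with the most UMIs of a member, 1 member was higher in each of the anti-PD-1 and anti-PSGL-1 libraries. Without cells that had an Mki67 or Top2a UMI, 2 were higher with the combination than with IgG, 1 than with anti-PD-1 and 2 than with anti-PSGL-1. Part of this was the 50 CPM level, since Gzme then still had log2 ratios of 3.97, 0.69 and 3.17 and Gzmf one of 3.51 over anti-PSGL-1, while over anti-PD-1 Gzmf was at 0.08 and Gzmd at -0.61. Over anti-PD-1, 4 of 6 were higher with the combination (background 5.42%), and over anti-PSGL-1, 5 of 6 (background 1.87%), with backgrounds for lower genes of 10.3% and 5.01%. Gzmf over anti-PD-1, and Gzme and Gzmf over anti-PSGL-1, also reached 50 CPM in the combination library alone. 50% of the UMIs of Gzmc to Gzmg in NK-like cells lay in 2 cells with anti-PD-1, 6 with anti-PSGL-1, 5 with the combination and 3 with IgG.

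Thinned to 2000 UMIs, NK-like cells with any of Gzmc to Gzmg made up 10.6% (7.98 to 13.7) in the anti-PD-1 library, 17.4% (13.8 to 21.5) in the anti-PSGL-1 library, 24.0% (18.7 to 29.9) with the combination and 10.1% (7.77 to 12.8) with IgG. The share was highest in the combination library, next in the anti-PSGL-1 library, and about equal in the other two. Thinning left out 25, 15, 1 and 199 cells, most of them with IgG, where the median NK-like cell had 2489 UMIs. The share for Gzmc alone was 8.51%, 16.9%, 23.6% and 9.73%. None of the thinned NK-like cells had all 6 members, and 5 members were found in 1, 2, 1 and 0 cells.

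The difference between cell classes could be tested, since each library holds both classes and the 4 libraries, each a different treatment, then serve as replicates. Sums of UMIs for each class in each library were tested with edgeR's quasi-likelihood test, with library as a block and Benjamini-Hochberg adjustment over 10088 genes. Gzmf was higher in CD8 T-like than in NK-like cells in 4 of 4 libraries, by 4.76 on the log2 scale (SE 0.63, adjusted p = 0.0004). Its means were 666 ± 702 CPM in CD8 T-like cells and 20.5 ± 27.5 CPM in NK-like cells (SD, n = 4). Gzmc was lower in CD8 T-like cells in 3 of 4 libraries and at 1047 CPM against 1043 CPM in NK-like cells in the anti-PD-1 library, with a log2 fold change of -2.69 (SE 0.57, edgeR adjusted p = 0.00483). Gzmc averaged 467 ± 475 CPM in CD8 T-like cells and 2136 ± 2345 CPM in NK-like cells. The 2 genes were thus called in opposite directions, 1 of 6 higher and 1 of 6 lower, in a comparison in which 23.2% of all genes were called higher and 22.8% lower.

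Gzmb had a log2 fold change of -0.08 (SE 0.11, edgeR adjusted p = 0.616) and was higher in CD8 T-like cells in 1 of 4 libraries. Gzmd, Gzme and Gzmg had log2 fold changes of 0.45, 1.5 and 1.79, with edgeR adjusted p-values of 0.709, 0.0535 and 0.107. Gzmg stood at 0.0817 CPM in CD8 T-like and 9.21 CPM in NK-like cells with anti-PSGL-1, the library in which the direction was opposite to the other 3. The 2 classes also differed in depth in each library, and its part in the result was not tested.

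**Figure D5:**
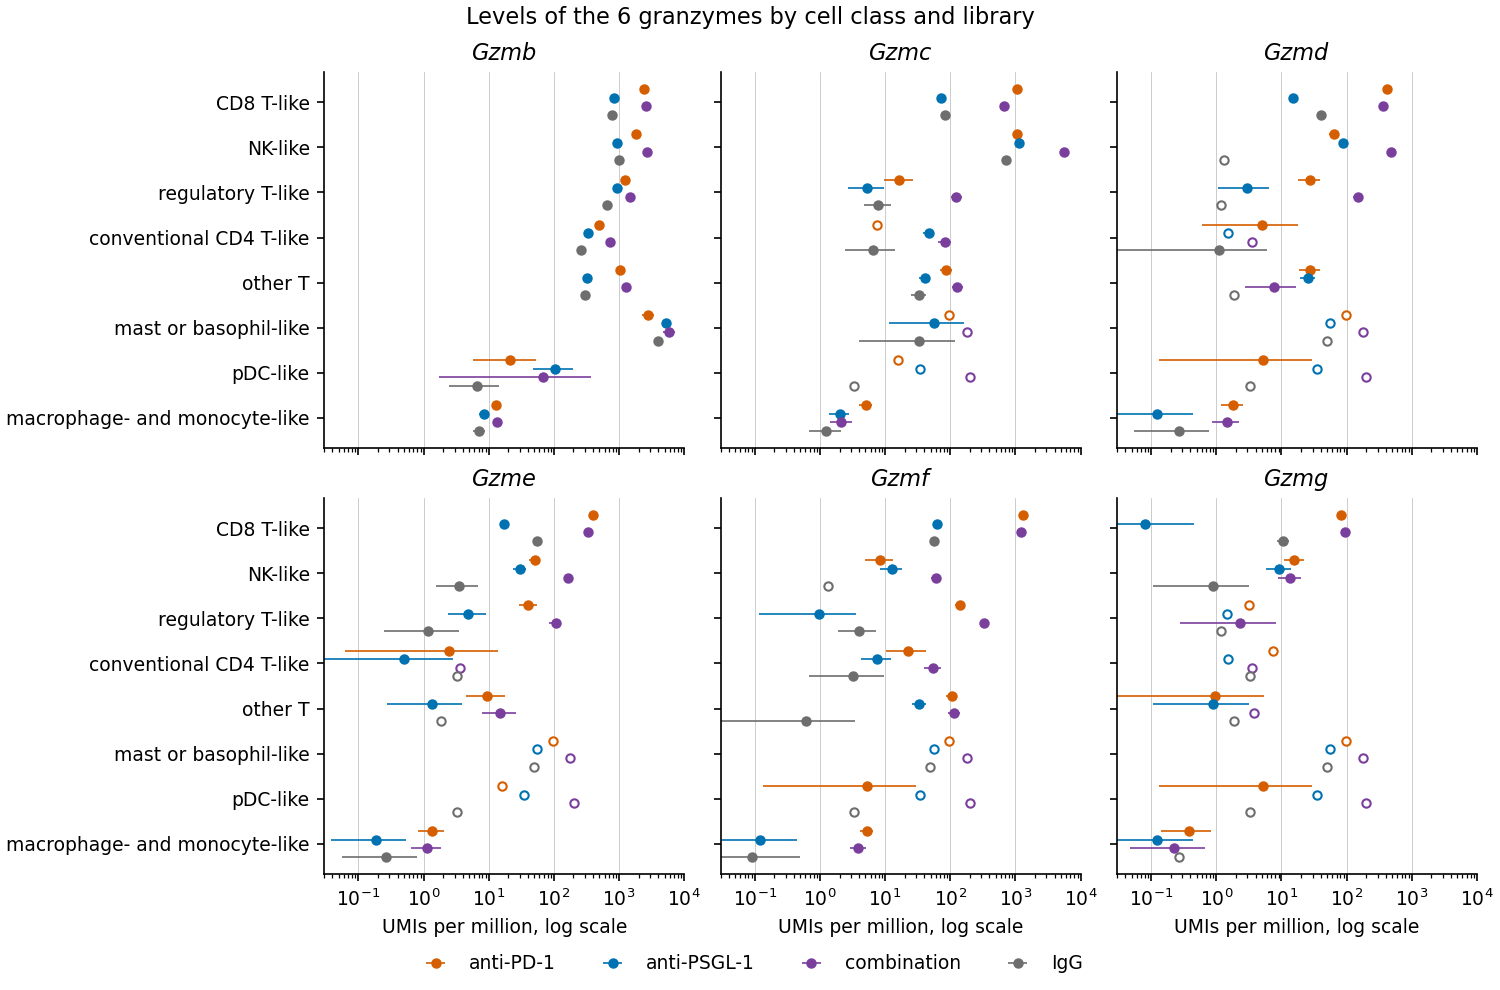
CPM of each member on a log axis in 8 cell classes, with a point for each library and 95% Poisson intervals; open circles stand for 0 UMIs and are drawn at the floor of 3 counts. Gzmb reaches 5921 CPM in mast or basophil-like cells and at most 13.4 CPM in macrophage- and monocyte-like cells, and Gzmf is highest in CD8 T-like cells, at 1307 CPM with anti-PD-1, while Gzmc is highest in NK-like cells, at 5644 CPM with the combination.

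Across classes Gzmb was highest in mast or basophil-like cells, which numbered 11, 13, 3 and 24, at 2804, 5233, 5921 and 3953 CPM with anti-PD-1, anti-PSGL-1, the combination and IgG. The combination value came from 1 of 3 cells. These cells were led by Cma1 and Mcpt4, genes of mast cell proteases, and had 0 UMIs of Gzmd to Gzmg, with 0, 3, 0 and 2 UMIs of Gzmc. The ranges of CD8 T-like cells (785 to 2639 CPM) and NK-like cells (936 to 2699.8 CPM) came next and overlapped each other. They also overlapped that of regulatory T-like cells, at 1217, 946, 1481 and 656 CPM. Other T cells stood at 1055, 320, 1279 and 297 CPM and conventional CD4 T-like cells at 489, 329, 725 and 257 CPM. In B-like cells Gzmb was 54.0, 35.5, 99.3 and 70.5 CPM, and in macrophage- and monocyte-like cells 13, 8.55, 13.4 and 7.15 CPM. The unnamed cluster, the dendritic cell (DC) classes and neutrophil-like cells are not listed here, and some of them held Gzmb. With the combination 13 migratory DC-like cells had 151 Gzmb UMIs among 209390 UMIs. With anti-PD-1 the 19 cells of the unnamed cluster had 410 among 276689.

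The share of a member's UMIs that came from CD8 T-like cells differed by library. With anti-PD-1 these cells held 81.4% of Gzmb, 84.8% of Gzmc and 96.1% of Gzmf UMIs of all kept cells. With anti-PSGL-1 they held 59.0%, 23.3% and 85.1%, with the combination 87.0%, 57.0% and 97.8%, and with IgG 48.9%, 25.3% and 68.1%. NK-like cells held most Gzmc UMIs with anti-PSGL-1 (70.1%) and IgG (57.5%), against 13.4% with anti-PD-1 and 41.8% with the combination. With IgG the unnamed T cell cluster held 12.7% of Gzmb, 13.6% of Gzmc and 29.6% of Gzmf UMIs, which are not counted as CD8 T-like. For Gzmf that cluster held 1.52% with anti-PD-1, 0.112% with anti-PSGL-1 and 0.00736% with the combination. The shares depend on this and on the number of cells of each class, which differed between the libraries.

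Among CD4 cells, regulatory T-like cells, which express Foxp3 and restrain other T cells, carried more Gzmb than conventional CD4 T-like cells in 4 of 4 libraries. The levels were 1217 against 489 CPM with anti-PD-1, 946 against 329 CPM with anti-PSGL-1, 1481 against 725 CPM with the combination and 656 against 257 CPM with IgG. The difference was 1.21 on the log2 scale (SE 0.08, adjusted p = 4.35e-08, edgeR over 7035 genes). With Gzmf, at a log2 fold change of 1.94 (SE 0.41, edgeR adjusted p = 0.00186), 2 of the 3 members that passed the filter on low counts were called higher, against 19.7% of all genes. Gzmf stood at 140, 0.974, 325 and 3.94 CPM in regulatory T-like cells and 22.5, 7.54, 54.8 and 3.25 CPM in conventional CD4 T-like cells, and was higher in 3 of 4 libraries. In the combination library 1 of 81 regulatory T-like cells held 60.3% of its Gzmf UMIs. Without the combination library the Gzmf log2 fold change was 1.05 (edgeR adjusted p = 0.209). Gzmc, also tested, had a log2 fold change of -0.48 (edgeR adjusted p = 0.450), and Gzmd, Gzme and Gzmg did not pass the filter.

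Regulatory T-like Gzmb also differed between treatments, with ratios to IgG of 1.86 (1.72 to 2.00) for anti-PD-1, 1.44 (1.35 to 1.54) for anti-PSGL-1 and 2.26 (2.10 to 2.43) for the combination. After thinning, the share of these cells with a Gzmb UMI was 57.4%, 52.8%, 60.3% and 50.5% with anti-PD-1, anti-PSGL-1, the combination and IgG. The sum of Gzmc to Gzmg in regulatory T-like cells was 224 CPM in 145 cells with anti-PD-1, 14.1 CPM in 256 cells with anti-PSGL-1, 709 CPM in 81 cells with the combination and 13 CPM in 480 cells with IgG. Only 19, 13, 14 and 18 of these cells had such a UMI. In the same library order 1 cell held 50.5%, 55.2%, 42.3% and 30.3% of the sum, so these levels rest on few cells.

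Division was set against the members inside the CD8 T-like class, by a UMI of Mki67 or Top2a, which 611, 648, 957 and 498 cells had with anti-PD-1, anti-PSGL-1, the combination and IgG. Gzmc was higher in dividing than in other cells in 4 of 4 libraries. It stood at 1125 against 866 CPM with anti-PD-1, 87.6 against 47.8 CPM with anti-PSGL-1, 766 against 396 CPM with the combination and 89.6 against 73.9 CPM with IgG. The difference was 0.59 on the log2 scale (SE 0.08, adjusted p = 3.46e-06, edgeR over 9885 genes), and Gzmc was the 1 member of 6 called higher, where 25.3% of all genes were. None of the 6 was called lower in this edgeR test, where 24.8% of all genes were. At an unadjusted p under 0.05 the edgeR fit had Gzme and Gzmf lower, with log2 fold changes of -0.32 and -0.35 and adjusted p-values of 0.0637 and 0.0519, and DESeq2 called 0 lower. Without the combination library, edgeR called 4 lower. Gzmb had a log2 fold change of 0.04 (SE 0.06, edgeR adjusted p = 0.549). Dividing cells had 13838, 11009, 15094 and 8709.5 UMIs at the median and other cells 6607, 5349, 7038.5 and 3737.5, and the part of depth in the result was not tested.

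Genes that work with granzymes were read from a list of granule and granzyme processing genes and a list of inducers and regulators of granzymes, in CD8 T-like cells and by the same 1.5-fold rule. With anti-PD-1 over IgG, 3 of the 15 granule genes at 50 CPM were higher and 1 lower, with a median log2 ratio of 0.34, where 3.18% of all genes were higher and 2.75% lower. Serpinb9b stood at 135 against 31.2 CPM, Prf1 at 423 against 166 CPM, and Serpinb9, which encodes the inhibitor of granzyme B, at 388 against 222 CPM, while Gzmk was lower at 72.7 against 141 CPM. Of 15 regulators 2 were higher, Irf8 at 522 against 228 CPM and Zeb2 at 77.9 against 51.4 CPM, and 2 lower, Tcf7 at 13.4 against 65.9 CPM and Eomes at 40.5 against 70.7 CPM.

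With the combination over IgG, 5 of 15 granule genes were higher and 0 lower (median log2 ratio 0.39), where 3.93% of all genes were higher and 1.52% lower. They were led by Serpinb9b at 279 against 31.2 CPM, Prf1 at 447 against 166 CPM and Serpinb9 at 430.4 against 222 CPM. Of 15 regulators 3 were higher, Irf8, Tbx21 and Id2, with ratios of 2.30, 1.59 and 1.51, and Tcf7 was lower at 0.138. With anti-PSGL-1 over IgG, 0 of 13 granule genes and 0 of 14 regulators passed the fold in either direction, where 0.698% of all genes were higher and 0.294% lower. Other genes of the chromosome 14 locus, such as Mcpt8 and Ctsg, were under 50 CPM in CD8 T-like cells in these comparisons (0 of 8 measured). Gzmk and Serpinb9b were higher with the combination than with anti-PD-1, at ratios of 2.33 and 2.07 (2 of 15 granule genes, background 1.46%). In NK-like cells with the combination over IgG, 5 of 13 granule genes were higher, among them Serpinb6a, Serpinb9b and Prf1 at ratios of 5.11, 1.98 and 1.78, and Lyst was lower at 0.328. Of 12 regulators in these cells 0 were higher and 5 lower, among them Nr4a1, Tcf7 and Eomes at 0.459, 0.509 and 0.642. Of all genes in that comparison 5.13% were higher and 9.1% lower.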

How the data were processed

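Cells were profiled by 10x droplet sequencing, 1 library per treatment. The deposited files hold UMI counts per gene and barcode. They were made with Cell Ranger 3.1.0 on mm10, per the submitters' processing notes, which also list FastQC. The sources used here do not give the kit's end, the read length, the annotation version, strand use or the handling of reads shared by copies.

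From the deposited counts, a barcode was kept if it had 300 or more detected genes, no more than 10% of its UMIs from mitochondrial genes and no more than 60000 UMIs in all. Scrublet's own threshold marked 84, 0, 42 and 1 cells with anti-PD-1, anti-PSGL-1, the combination and IgG and had not worked in every library, so the highest scores were removed instead, at 0.8% per 1000 barcodes, 219, 377, 154 and 717 cells. Cells were clustered (scanpy 1.11.5, leidenalg 0.10.2; 2000 variable genes without the 6 members, 30 components, 20 neighbours, resolution 1), and the T and NK clusters were divided further in the same way. CPM has a Poisson interval and a ratio an exact conditional interval; shares have exact binomial (Clopper-Pearson) intervals, all at 95%. They cover counting error only, and a count of 0 was set to a floor of 3 counts. With 1 library per treatment no test was made between treatments. Classes were compared by edgeR 4.0.16 quasi-likelihood tests on summed counts (TMM scaling, filterByExpr, Benjamini-Hochberg over all genes tested, 0.05), with DESeq2 1.42.0 as an alternative. Nothing says that the libraries came from separate groups of animals beyond their treatments, and these p-values measure the spread over 4 differently treated libraries. Both classes of a pair come from the same library and tumours, so library was a block. Other tools were Python 3.11.15, numpy 2.4.6, scipy 1.17.1, pandas 2.3.3, scikit-learn 1.9.0, Biopython 1.88, matplotlib 3.10.9 and R 4.3.3. The edgeR fits were also run on simulated counts, with the same relative spread for every gene and no difference between libraries beyond their size. The members differed more between libraries than that setting allows, so it cannot check their p-values.

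The members and gene lists were chosen with earlier results of these data known. Named genes were the 6 members, up to 3 genes each way with the largest ratios past 1.5-fold from a granule list (21 genes) and a regulator list (20 genes), 8 neighbours in the locus, and the 5 genes most like Gzmb and the sum of Gzmc to Gzmg. Alternatives changed the clustering genes, resolution, doublets, gene minimum, cell weighting, CPM total, CD8 choice, dividing cells, thinning, detection, count scaling, filter, block and libraries. Leaving out the cell with the most UMIs was chosen after seeing the data.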

Additional observations from a re-analysis of the deposited data

Results flagged for a closer look

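Gzmc differed between the combination and anti-PD-1 in opposite directions in 2 classes: the ratio was 0.634 in CD8 T-like cells and 5.41 in NK-like cells, with 1 library per treatment, and the difference between the classes was not tested. The log2 differences in this section were taken on CPM + 1, and the added 1 shrinks them at low levels. The log2 difference of Gzmg between CD8 T-like and NK-like cells was -3.24 in the anti-PSGL-1 library, far from 2.31, 2.73 and 2.62 in the anti-PD-1, combination and IgG libraries. The CD8 T-like value there is 1 UMI. The log2 difference of Gzmg between regulatory and conventional CD4 T-like cells was 1.73 in the combination library, where it rests on 2 UMIs, and 0 in the other 3 libraries. For normally distributed values, chance sets apart a sample in this way in about 1 in 20 groups of 4. The rule was applied to each of 6 members in 3 comparisons of classes. With 0 in the other 3 libraries, any Gzmg UMI in the combination library meets it for regulatory over conventional CD4 T-like cells.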

How the results depend on the processing

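Gzmb to Gzmf stayed higher past 1.5-fold with anti-PD-1 and with the combination than with IgG in CD8 T-like cells under each of 11 alternatives, while Gzmg did so in 10 of 10 and 9 of 10. Over these alternatives the log2 ratios of anti-PD-1 to IgG were 1.47 to 1.71 for Gzmb, 2.61 to 3.86 for Gzmc, 2.91 to 3.78 for Gzmd, 2.61 to 3.17 for Gzme and 4.25 to 4.75 for Gzmf. Those of the combination to IgG were 1.58 to 1.86, 1.98 to 3.16, 1.85 to 3.58, 1.84 to 2.91 and 3.58 to 4.69. The lowest Gzmc values came at resolution 0.6, and the lowest combination values of Gzmd, Gzme and Gzmf without cells with an Mki67 or Top2a UMI. A member also leaves a count by falling under 50 CPM, as Gzme did for anti-PSGL-1 over IgG with its log2 ratio at -1.33 or below in 11 of 11. The number of members lower in CD8 T-like cells there, 1, was 0 with cells weighted equally, with CD8 cells chosen by UMIs and without the cell with the most UMIs, 2 with the total taken without ribosomal, mitochondrial and member genes, and 3 without cells with an Mki67 or Top2a UMI. The log2 ratio of Gzmg there was 1.35 with CD8 cells chosen by UMIs. For the combination over anti-PD-1 in CD8 T-like cells, 5 members in place of 1 were lower without cells with an Mki67 or Top2a UMI. Beyond the 50 CPM level, the causes of these changes were not tested.

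In NK-like cells, members higher than with IgG numbered 1 for anti-PD-1 with cells weighted equally and without the cell with the most UMIs. For anti-PSGL-1 they numbered 1 with members kept among the clustering genes, doublets kept, at least 600 detected genes, cells weighted equally, resolution 1.6, no cells with an Mki67 or Top2a UMI, and without the cell with the most UMIs. Without cells with an Mki67 or Top2a UMI, members higher with the combination numbered 2 over IgG, 1 over anti-PD-1 and 2 over anti-PSGL-1, and 1 was lower than with anti-PD-1. The log2 ratio of Gzmd over anti-PD-1 was then -0.61, while that of Gzme stayed past the fold in all 3.

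The share of CD8 T-like cells with any of Gzmc to Gzmg was 26.1% at 1000 UMIs, 37.1% at 4000 UMIs, 43.4% without thinning and 23.0% at 2 or more UMIs with anti-PD-1. The same settings gave 3.07%, 6.21%, 8.51% and 2.32% in the anti-PSGL-1 library and 20.2%, 29.8%, 36.2% and 18.2% in the combination library. With IgG the last 3 settings gave 7.0%, 7.01% and 2.57%. Of the 5 genes most like Gzmb, 1 was shared with 20 or more cells and 2 with Spearman's rho, and of those most like the sum, 3 and 3.

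In the edgeR tests, members higher in CD8 T-like than NK-like cells numbered 3 with no filter, 3 without the cell with the most UMIs, 2 with doublets kept, 2 with members kept in clustering, and 1 to 3 with a library left out. Without the replicate block 0 were lower there, 1 was higher in regulatory T-like cells and 0 were higher in dividing cells. In regulatory T-like cells 1 was higher with DESeq2, where Gzmf was tested and not called, and 1 with members kept in clustering and without the cell with the most UMIs, where Gzmb was the 1 member that passed the filter, 4 with no filter, and 1 to 2 with a library left out. In dividing cells 2 were lower with DESeq2's size factors, 3 with no filter, and 0 to 4 with a library left out. Over all genes, calls between regulatory and conventional CD4 T-like cells numbered 2817, against 1679 with DESeq2, and between dividing and other cells 4957, against 3226 with DESeq2 and 3152 without the block. Levels that rest on a few cells or on 1 library per treatment limit each comparison of treatments.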
